A study of Mus musculus with 4 samples.

Results

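The genes by which retinoic acid is made, bound and broken down were followed through 9 members: Rdh10, Aldh1a2, Stra6, Dhrs3, Crabp1, Crabp2, Rarb, Cyp26a1 and Cyp26b1. They were taken by symbol from the 27998 genes of the files, and all 9 were present. Single-cell RNA profiles had been recorded from untreated ICR mouse embryos at embryonic day 12, from submandibular mesenchyme, parotid mesenchyme, submandibular epithelium and parotid epithelium. Approximately 10 glands of each kind were pooled, and each group had 1 library on the 10x Chromium droplet system, so no difference between groups has a test. Every interval below is a 95% interval of counting error only and does not cover differences between embryos, litters or dissections.

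Retinoic acid is a diffusible signal made from vitamin A. Cells take up retinol, oxidise it to retinaldehyde and then to retinoic acid, which binds receptors in the nucleus and is removed by enzymes of the cytochrome P450 family. Cells that make it and cells that clear it together set where it acts, and in the mouse it is known to promote growth of the fetal submandibular gland.

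Levels are given as CPM, that is captured RNA molecules, each counted once by its molecular tag (UMI), summed over the cells of a class and scaled to a common library total. Cells were sorted into classes by marker genes, without the retinoic acid genes. The 4 libraries held 15351 barcodes and between 14004908 and 39621166 UMIs each, and 14874 barcodes were kept. Mesenchymal-like cells numbered 4226 in the submandibular and 3909 in the parotid mesenchyme library, and epithelial-like cells 3609 in the submandibular and 1753 in the parotid epithelium library. Most cells of each library thus carried the markers of the labelled tissue, although the parotid mesenchyme library also held 120 epithelial-like cells and the submandibular mesenchyme library 16. Median depth was 5269.5 and 5561 UMIs per mesenchymal-like cell in submandibular and parotid tissue, and 9833 and 7110 UMIs per epithelial-like cell. Between 9 and 32 kept barcodes were shared by any pair of libraries, at most 0.758% of the smaller library.

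The synthesis genes among the members, Rdh10 and Aldh1a2, were read mainly from the mesenchyme, and most strongly from that of the submandibular gland. Rdh10 (chr1:16105774-16133734, GRCm38, plus strand) encodes the enzyme that oxidises retinol to retinaldehyde. It stood at 92.1 CPM (88.3 to 96.0) in submandibular mesenchyme and 21.9 CPM (20.0 to 23.9) in parotid mesenchyme. In epithelium it stood at 2.82 CPM in submandibular and 6.35 CPM in parotid cells. The order was thus submandibular mesenchyme, parotid mesenchyme, parotid epithelium, submandibular epithelium, with no overlap of neighbouring intervals. Aldh1a2 (chr9:71215789-71296243, plus strand) encodes the enzyme that turns retinaldehyde into retinoic acid. It stood at 208 CPM (202 to 214) in submandibular mesenchyme, 45.8 CPM (43.1 to 48.7) in parotid mesenchyme, 0.105 CPM in submandibular epithelium and 0.0756 CPM in parotid epithelium. The epithelial values rest on 4 UMIs in 3609 submandibular cells and 1 UMI in 1753 parotid cells, and their intervals overlap. In mesenchyme, Rdh10 was 4.21-fold higher (3.82 to 4.64) and Aldh1a2 4.54-fold higher (4.25 to 4.85) in submandibular than in parotid cells.

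Aldh1a2 was therefore close to exclusive to mesenchyme in these libraries, while Rdh10 was not. The ratio of mesenchyme to epithelium for Aldh1a2 was 1988 (776 to 7299) in the submandibular gland, and 606 (109 to 23970) in the parotid gland against the single epithelial UMI. For Rdh10 it was 32.6 (26.9 to 39.9) in the submandibular and 3.45 (2.73 to 4.39) in the parotid gland. Aldh1a3 and Aldh1a1, which are not members, encode other enzymes of the Aldh1a2 step and were higher in epithelium. Aldh1a3 stood at 5.49 CPM in submandibular and 6.43 CPM in parotid epithelium, against 3.37 and 1.52 CPM in mesenchyme. Aldh1a1 stood at 1.23 and 0.907 CPM in the epithelia and at 0 CPM in both mesenchymes.

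Single cells gave the same order of the mesenchymes for Aldh1a2 and Rdh10. Each cell was thinned to 3000 UMIs, which left out 148 submandibular and 114 parotid mesenchymal-like cells as too shallow. Aldh1a2 was then seen in 38.2% (36.7 to 39.7) of 4078 submandibular and 9.78% (8.85 to 10.8) of 3795 parotid cells. Before thinning the shares were 52.5% in submandibular and 14.6% in parotid cells. Rdh10 was seen in 20.7% of submandibular and 6.56% of parotid cells after thinning, and in 31.9% and 10.8% before it. Erythroid-like cells, which should lack both, served as a measure of free RNA. In the submandibular mesenchyme library 0.943% of 106 such cells had Aldh1a2 after thinning and 1.89% had Rdh10, and in the parotid library 0 of 69 had either (upper limit 5.21%). Their median depth before thinning was 17195 UMIs in the submandibular and 16904 UMIs in the parotid library. Individual submandibular cells held up to 13 Aldh1a2 UMIs and 219 held at least 5, against a highest count of 21 and 29 such cells in parotid mesenchyme.

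The genes next to synthesis, on either side of the retinol pool, ran opposite ways between the tissues. Stra6 (chr9:58063788-58153996, plus strand) encodes the cell-surface receptor through which retinol enters from its carrier protein. It stood at 27.8 CPM in submandibular mesenchyme, 15.6 CPM in parotid mesenchyme, 8.13 CPM in submandibular epithelium and 1.36 CPM in parotid epithelium, with no overlap of intervals. Dhrs3 (chr4:144892827-144928209, plus strand) encodes the enzyme that reduces retinaldehyde back to retinol. It stood at 14.3 CPM in submandibular mesenchyme, 8.49 CPM in parotid mesenchyme, 96.1 CPM in submandibular epithelium and 58.9 CPM in parotid epithelium, again with no overlap. Dhrs3 was thus 6.72-fold lower (6.01 to 7.52) in mesenchyme than in epithelium of the submandibular gland and 6.94-fold lower (5.93 to 8.14) in that of the parotid gland. Dhrs3 was therefore mainly epithelial where Rdh10 and Aldh1a2 were mainly mesenchymal. Between glands, submandibular cells had the higher Dhrs3 in both tissues, 1.69-fold (1.41 to 2.01) in mesenchyme and 1.63-fold (1.51 to 1.77) in epithelium. Parotid erythroid-like cells, a measure of free RNA, had 4.24 CPM (1.38 to 9.90) of Dhrs3, which overlaps the parotid mesenchymal value, and submandibular ones 4.95 CPM (2.26 to 9.40). Erythroid-like cells were deeper, and before thinning 6.60% (2.70 to 13.1) of submandibular ones had Dhrs3, against 7.12% (6.37 to 7.94) of mesenchymal-like cells. The part of free RNA in mesenchymal Dhrs3, and so in its gland ratio, was not tested.

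Of the genes of cytoplasmic binding proteins, Crabp1 parted by gland and Crabp2 stayed within 2-fold between the glands. Crabp1 (chr9:54764748-54773110, plus strand), which binds retinoic acid in the cytoplasm, stood at 43.8 CPM in submandibular mesenchyme, 202 CPM in parotid mesenchyme, 1.20 CPM in submandibular epithelium and 11.2 CPM in parotid epithelium. It was the one member past 2-fold lower in submandibular mesenchyme, by 4.61-fold (4.32 to 4.93). Crabp2 (chr3:87948666-87953376, plus strand), which carries retinoic acid to its nuclear receptors, gave the most UMIs of the members in each group, a count not set per gene length. It stood at 513 CPM in submandibular mesenchyme, 445 CPM in parotid mesenchyme, 241 CPM in submandibular epithelium and 122 CPM in parotid epithelium. After thinning Crabp2 was found in 76.3% of submandibular and 68.5% of parotid mesenchymal-like cells, so its level was broad rather than restricted to a subset. Its gland ratio was 1.15 (1.12 to 1.18) in mesenchyme and 1.97 (1.87 to 2.08) in epithelium.

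Rarb (chr14:16430839-16819156, minus strand) encodes a nuclear receptor for retinoic acid and is itself a textbook target of that receptor family. It stood at 87.2 CPM in submandibular mesenchyme, 18.5 CPM in parotid mesenchyme, 30.9 CPM in submandibular epithelium and 17.6 CPM in parotid epithelium. Submandibular cells were higher in both tissues, 4.70-fold (4.24 to 5.22) in mesenchyme and 1.76-fold (1.53 to 2.03) in epithelium. Within the parotid gland the intervals of both tissues overlapped, with a mesenchyme to epithelium ratio of 1.05 (0.896 to 1.24).

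**Figure D1:**
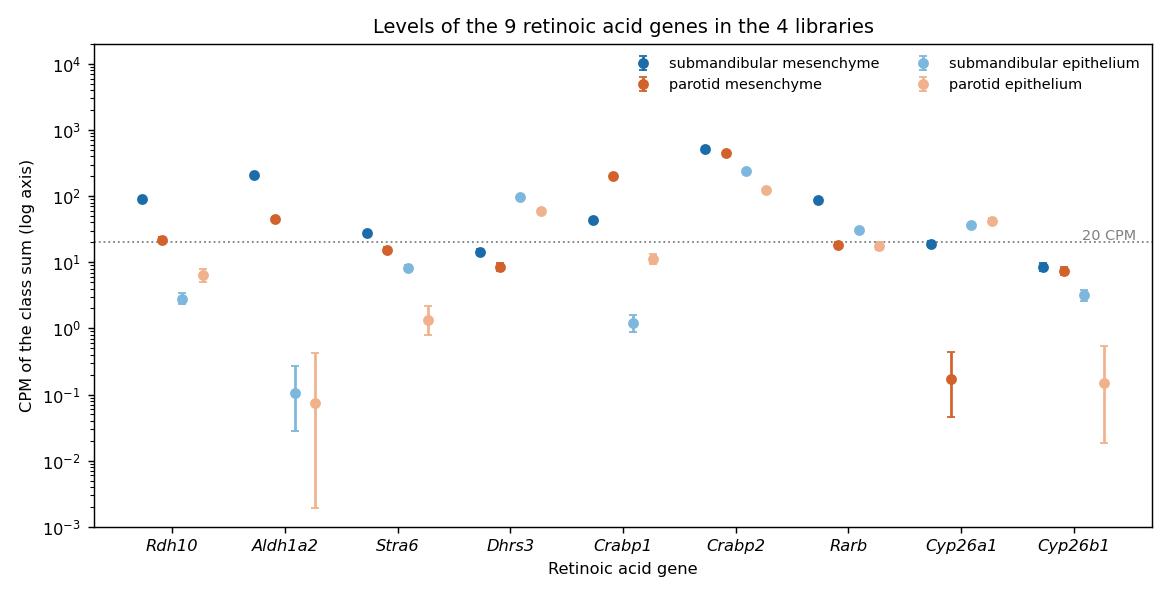
Summed level of each gene in CPM (log axis) in the mesenchymal-like or epithelial-like cells of the 4 libraries. Points are the class sums, bars exact 95% Poisson intervals (counting error only), and the dotted line marks 20 CPM. Aldh1a2 lies at 208 and 45.8 CPM in mesenchyme and near 0.1 CPM in epithelium, and Cyp26a1 at 18.99 CPM in submandibular and 0.169 CPM in parotid mesenchyme.

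The breakdown gene Cyp26a1 had the highest gland ratio of the members in mesenchyme. Cyp26a1 (chr19:37697798-37701536, plus strand) encodes an enzyme that oxidises retinoic acid to inactive products and is, like Rarb, a textbook target of retinoic acid. It stood at 18.99 CPM (17.3 to 20.8) in submandibular mesenchyme, 0.169 CPM (0.0460 to 0.433) in parotid mesenchyme, 36.1 CPM (34.2 to 38.1) in submandibular epithelium and 42.6 CPM (39.2 to 46.3) in parotid epithelium. The mesenchymal values rest on 462 UMIs in 285 submandibular cells and 4 UMIs in 4 parotid cells, a ratio of 112 (43.6 to 414). Parotid epithelium held 564 UMIs in 342 cells, so the mesenchyme of that gland was 252-fold lower (98.0 to 929) than its epithelium. Between the epithelia the ratio of submandibular to parotid was 0.847 (0.768 to 0.936), and it turned to the other side of 1 when each cell counted equally (log2 ratio 0.18, against -0.24 from the sums). In the submandibular mesenchyme library 0 of 106 erythroid-like cells had a Cyp26a1 UMI (exact upper limit 2.03 CPM), while epithelial-like cells of the same library had 1 UMI in 16 cells.

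Cyp26b1 (chr6:84571414-84593908, minus strand), a related breakdown enzyme, did not exceed 8.39 CPM in any of the 4 groups. It stood at 8.39 CPM (7.27 to 9.62) in submandibular mesenchyme and 7.44 CPM (6.38 to 8.62) in parotid mesenchyme, which overlap (ratio 1.13, 0.917 to 1.39). Submandibular epithelium had 3.16 CPM and parotid epithelium 0.151 CPM, parotid epithelium having 2 UMIs in 1753 cells (ratio 20.9, 5.67 to 175). The parotid mesenchyme thus had Cyp26b1 at the submandibular level with next to no Cyp26a1. Erythroid-like cells had 0 CPM of Cyp26b1 in the submandibular mesenchyme library (upper limit 2.03 CPM) and 0.849 CPM (0.0215 to 4.73) in the parotid one. Higher Cyp26b1 was found in small classes of the submandibular mesenchyme library, at 50.8 CPM (30.1 to 80.3) in 56 chondrogenic-like cells and 25.5 CPM (17.5 to 35.8) in 139 endothelial-like cells. In 63 parotid endothelial-like cells there was 1 UMI of Cyp26b1 (1.59 CPM, 0.0401 to 8.83).

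Rarb and Cyp26a1 are shown with their promoter sequence because retinoic acid receptors are known to bind, at these genes, direct repeats of a hexamer with a 5-base spacer (DR5). RefSeq promoters on GRCm38.p6, each with 250 bases before and 50 after the annotated start, were matched by symbol for 7 of the 9 genes, Rdh10 and Crabp2 being the exceptions. The search allowed either purine at the first base and G or T at the third base of each hexamer, and covered both strands. In the lines below, read 5′ to 3′ on the gene's strand, capitals mark the DR5, at chr14:16575427-16575726 (minus strand) and chr19:37697558-37697857 (plus strand).
Rarb: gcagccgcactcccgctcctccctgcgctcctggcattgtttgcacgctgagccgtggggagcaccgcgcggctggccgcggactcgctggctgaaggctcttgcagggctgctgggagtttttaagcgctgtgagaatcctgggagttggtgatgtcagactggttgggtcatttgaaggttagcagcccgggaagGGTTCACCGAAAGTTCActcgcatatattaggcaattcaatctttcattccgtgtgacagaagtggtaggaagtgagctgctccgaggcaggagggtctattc
Cyp26a1: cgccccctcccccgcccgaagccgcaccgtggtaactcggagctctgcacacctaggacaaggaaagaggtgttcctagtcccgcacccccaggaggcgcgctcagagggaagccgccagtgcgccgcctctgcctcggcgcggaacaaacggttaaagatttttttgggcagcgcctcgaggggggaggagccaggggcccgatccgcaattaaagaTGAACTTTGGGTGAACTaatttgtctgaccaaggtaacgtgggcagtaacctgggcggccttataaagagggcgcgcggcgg

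A DR5 was present in the promoters of Rarb and Cyp26a1 and of no other member with an entry, against 32 of all 32851 promoters (0.0974%). In Rarb it lay 53 to 37 bases before the start, on the gene's own strand. In Cyp26a1 it lay 32 to 16 bases before the start, on the opposite strand. The Rarb start searched lies inside the locus given above, whose outer end is at chr14:16819156, and no window at that end was searched. Rarb UMIs were not split by start. Repeats with a 1-base spacer (DR1) and with a 2-base spacer (DR2) were in 0.222% and 0.268% of all promoters and in no member's. A match is only a string of letters in this window. The genes with a DR5 were not alike in the parotid gland, where Rarb stood at 18.5 CPM in mesenchyme and 17.6 CPM in epithelium, and Cyp26a1 at 0.169 and 42.6 CPM.

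Counted by a rule of at least 20 CPM in the higher sum and at least a 2-fold ratio, 4 of the 9 members differed between submandibular and parotid mesenchyme, 3 higher (Rdh10, Aldh1a2, Rarb) and 1 lower (Crabp1). Over all genes the same rule took 8.71% of 6145, with 5.14% higher and 3.56% lower. Of the 9, 6 reached 20 CPM, and Cyp26a1, at 18.99 CPM, did not. Between submandibular and parotid epithelium 0 of 9 members passed, against 5.76% of 5560 genes in all (2.43% higher and 3.33% lower), with 4 members at 20 CPM or more. In mesenchyme over epithelium, 7 of the 8 members at 20 CPM or more passed in the submandibular gland (6 higher and Dhrs3 lower). Over all genes at 20 CPM or more it was 26.5% of 6396 (17.4% higher and 9.18% lower). In the parotid gland all 6 members at 20 CPM or more passed (4 higher, with Dhrs3 and Cyp26a1 lower). Over all such genes it was 17.8% of 6060 (10.3% higher and 7.44% lower). The median log2 ratio of the members past 20 CPM was 1.45 for submandibular over parotid mesenchyme and 0.76 for epithelium, beside 0.043 and 0.0021 over all genes, as a description of a chosen list. Crabp2 passed 2-fold in submandibular mesenchyme over epithelium narrowly, at 2.13-fold (log2 1.09), and no longer did so under trimmed mean (TMM) scaling (0.81), with each cell counting equally (0.88) or over all barcodes without classes (0.78).

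**Figure D2:**
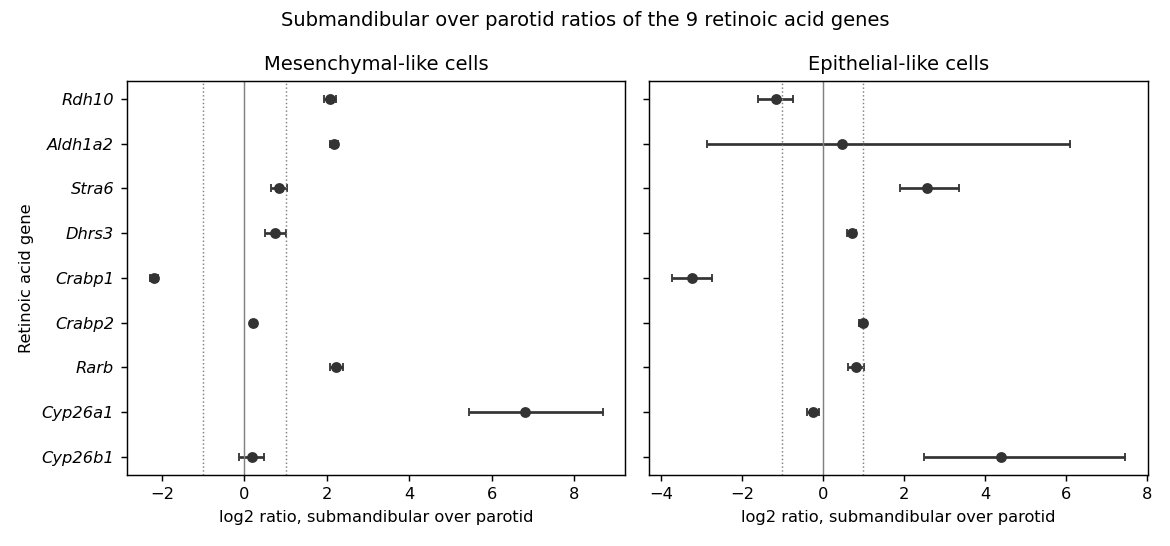
log2 ratio of submandibular over parotid level for each gene, in mesenchymal-like (left) and epithelial-like cells (right). Points are ratios of class sums, bars exact 95% intervals (counting error only), solid lines mark equal levels and dotted lines 2-fold. Rdh10 lies at 2.07 in mesenchyme and -1.17 in epithelium, and Cyp26a1 at 6.81 and -0.24.

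Within the submandibular mesenchyme both synthesis genes were present in each of the 10 mesenchymal-like clusters, but their peaks were in different clusters. Aldh1a2 ranged over the clusters between 121 and 410 CPM with a median of 181 CPM. Its highest level was in cluster 10, led by Cited1, Foxf1, Frzb, Mpped2 and Pax9, and this was the cluster with the lowest Rdh10, 18.6 CPM. Rdh10 reached 185 CPM in cluster 0, led among others by S100a6 and the growth factor gene Fgf10, where Aldh1a2 stood at 247 CPM. Over the 10 clusters Spearman's rho between the genes was 0.309, as a description of clusters that share a library.

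The parotid mesenchyme had its highest levels of both synthesis genes in 1 small cluster. Cluster 19, with 228 cells (5.83% of the mesenchymal-like cells), had 285 CPM of Aldh1a2 and 108 CPM of Rdh10. The next cluster, 17, led by Lrrn1, Dkk2 and Tbx18, had 122 CPM of Aldh1a2 and 65.2 CPM of Rdh10, while the median over the 13 clusters was 24.8 CPM for Aldh1a2 and 11.7 CPM for Rdh10. Cluster 19 thus lay within the submandibular range for both genes. Cluster 17 did so for Rdh10 but stood at the lower edge for Aldh1a2 (121.8 against 121.4 CPM), too close to place. The other 11 parotid clusters, at 94.7 CPM or less, lay below that range for Aldh1a2. Cluster 19 held 31.2% of the parotid Aldh1a2 UMIs and 24.7% of those of Rdh10, so most UMIs of both lay in the other clusters. Crabp2 (978 CPM) and Stra6 (59.9 CPM) were also highest there, and Rarb, at 33.7 CPM, was below its highest parotid cluster (47.4 CPM) and above the median of 18.9 CPM. Cyp26a1 was 0.844 CPM there (1 UMI). Without that cluster, chosen after its level was seen, the submandibular to parotid ratio was 6.26 for Aldh1a2 and 5.31 for Rdh10, and Stra6 passed 2-fold at 2.1.

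Cluster 19 was led in its library by Nefm, Nefl, Fst, Fgf10 and Stmn2, of which Nefm, Nefl and Stmn2 are on the list of 8 neuronal markers. That list summed to 3494 CPM there, 980 CPM in cluster 17 and between 108 and 420 CPM in the other parotid clusters, against 58.3 to 245 CPM in the submandibular clusters. Nefl (2460 CPM) and Nefm (716 CPM) made up most of it, Elavl3 was at 0, Elavl4 was at 1.69 CPM and Dcx at 0.844 CPM. The cluster carried 9 of the 10 mesenchymal markers in at least 25% of its cells. The part of the neurofilament genes in its retinoic acid gene levels was not tested.

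**Figure D3:**
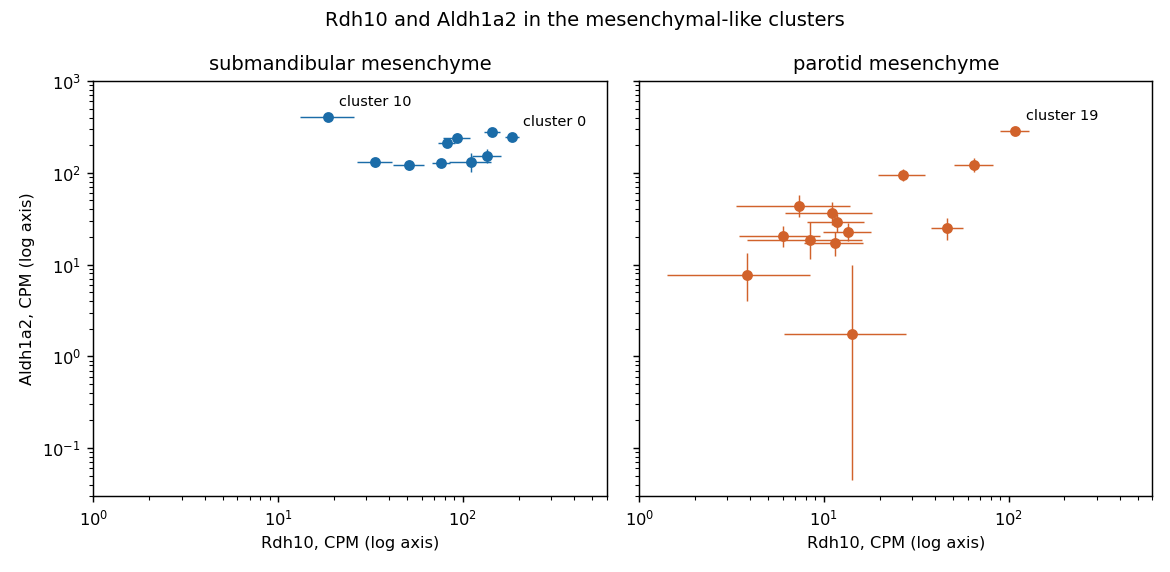
Rdh10 against Aldh1a2 in CPM (log axes) over the 10 submandibular (left) and 13 parotid (right) mesenchymal-like clusters. Points are cluster sums with exact 95% Poisson intervals. In the submandibular panel cluster 10 joins the highest Aldh1a2 (410 CPM) to the lowest Rdh10 (18.6 CPM), and in the parotid panel cluster 19 has the highest of both (285 and 108 CPM).

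Breakdown genes were distributed otherwise. Cyp26a1 ranged over the submandibular mesenchymal-like clusters between 5.30 and 41.1 CPM, and was highest in cluster 9, led by Ebf1 and Dlx5, where Aldh1a2 (130 CPM) and Rdh10 (33.4 CPM) were near the low end of their ranges. At a finer clustering the highest Cyp26a1 cluster (57.9 CPM) held 0% of cells of cluster 9, so the order of clusters for this gene was not fixed. No parotid mesenchymal-like cluster exceeded 1.14 CPM of Cyp26a1, including the Aldh1a2-rich one. Cyp26b1 ranged between 2.13 and 14.8 CPM over submandibular and 0.740 and 22.4 CPM over parotid clusters, the highest parotid cluster, 16, having 7.70 CPM of Aldh1a2. Crabp1 ranged between 3.53 and 134 CPM over submandibular and 38.1 and 367 CPM over parotid clusters, and Rarb between 65.2 and 114 CPM over submandibular and 3.54 and 47.4 CPM over parotid clusters, so that the Rarb ranges of both glands did not meet.

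Co-detection asked whether cells with Rdh10 or Aldh1a2 also carry the genes that remove retinoic acid. It was read at 3000 UMIs per cell as the number of cells with both genes, over the number from the product of both shares. In submandibular mesenchyme, 77 cells had both Aldh1a2 and Cyp26a1 against 63.8 expected, a ratio of 1.21 (0.952 to 1.51). Aldh1a2 was thus found in 46.1% (38.4 to 54.0) of the 167 cells with Cyp26a1 and in 37.9% of the cells without it. Aldh1a2 with Cyp26b1 gave 1.15 (0.845 to 1.53) and with Dhrs3 1.02 (0.793 to 1.28). For Rdh10 the ratios were 0.838 (0.561 to 1.20) with Cyp26a1, 0.947 (0.586 to 1.45) with Cyp26b1 and 0.712 (0.469 to 1.04) with Dhrs3, the last becoming 1.23 under a stricter barcode filter. At this depth Dhrs3 was seen in 4.49% (3.87 to 5.17) of these cells. In submandibular erythroid-like cells it was seen in 0.943% (0.0239 to 5.14), an overlap, so nothing is read from the Dhrs3 pairs. Cyp26b1 was seen in 2.62% (2.16 to 3.16) of the mesenchymal-like and 0 of 106 erythroid-like cells (upper limit 3.42%). These shares overlap too, so the Cyp26b1 pairs are given as counts only. All 6 intervals include 1, but they are Poisson intervals of the joint count and are wide for a gene as common as Aldh1a2. The interval of the Aldh1a2 share in cells with Cyp26a1 (38.4 to 54.0%) lay just above the 37.9% of cells without it. That share's own interval (36.3 to 39.4%) overlaps it. Inside clusters the ratio of this pair was 1.23. A small departure for Aldh1a2 with Cyp26a1 is thus neither shown nor excluded.

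Taken by state, 146 of the 4078 submandibular cells (3.58%) had Rdh10 or Aldh1a2 together with Cyp26a1 or Cyp26b1. Synthesis genes alone were found in 1939 cells (47.5%), a breakdown gene alone in 124 (3.04%) and none of the 4 genes in 1869 (45.8%). Of the 270 cells with a breakdown gene 54.1% (47.9 to 60.1) had a synthesis gene, against 50.9% (49.3 to 52.5) of those without one. Cyp26a1 and Cyp26b1 were found together in 4 cells. Of the 3795 parotid cells, 6 (0.158%) had a synthesis with a breakdown gene, 557 (14.7%) synthesis genes alone, 69 (1.82%) a breakdown gene alone and 3163 (83.3%) none. Of the 75 parotid cells with a breakdown gene, of which 74 had Cyp26b1, 6 had a synthesis gene (8%, 2.99 to 16.6), against 14.97% (13.8 to 16.2) of those without one. After thinning Cyp26b1 was in 1.95% (1.53 to 2.44) of parotid mesenchymal-like and 0 of 69 erythroid-like cells (upper limit 5.21%), an overlap. The parotid states with a breakdown gene are thus counts only, and the part of free RNA was not tested.

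The pairs of the parotid mesenchyme stood apart from those of the submandibular in another way. Rdh10 and Aldh1a2 were found together in 57 parotid cells against 24.3 expected, a ratio of 2.34 (1.77 to 3.03), whereas the 318 such submandibular cells gave 0.985 (0.880 to 1.10). With expected numbers computed inside each cluster the parotid ratio was 1.15, so most of the joint detection lay between clusters. Aldh1a2 and Dhrs3, whose enzymes both act on retinaldehyde, were found together in 15 parotid cells against 7.62 expected, a ratio of 1.97 (1.10 to 3.24), and 1.83 inside clusters. At this depth, however, Dhrs3 was seen in 2.06% (1.63 to 2.56) of parotid mesenchymal-like and 2 of 69 erythroid-like cells (2.90%, 0.353 to 10.1), so its parotid detection did not exceed that of free RNA beyond counting error and nothing is read from that pair. The ratio of Aldh1a2 with Cyp26b1 was 0.691 (0.224 to 1.61) from 5 cells. Cyp26a1 was left with 1 parotid cell after thinning, so no ratio was read for it. At least 5 cells were expected for 34 member pairs in submandibular and 22 in parotid mesenchyme. The Poisson interval lay above 1 in 1 and 7 of them, and below 1 in 1 and 0. The submandibular 1 above was Rarb with Dhrs3, and the parotid 7 included Aldh1a2 with Dhrs3. The submandibular 1 below was Rdh10 with Crabp1, at 0.625 (0.458 to 0.834), and 0.850 inside clusters. Over all pairs with at least 5 cells expected the median ratio was 0.99 in submandibular and 1.1 in parotid mesenchyme. With expected numbers inside clusters these medians were 0.995 and 1.02. Poisson intervals are wide for common genes, so the counts above can miss pairs on either side. Parotid Rdh10 with Crabp2 was not counted, yet Rdh10 was in 7.54% (6.55 to 8.62) of Crabp2 cells and 4.44% (3.34 to 5.77) of others. Crabp1 leaned the other way, at 30.5% (28.8 to 32.3) and 35.0% (32.3 to 37.8), intervals that meet. Inside clusters the ratio with Crabp2 was 1.02 for Rdh10 and 0.989 for Crabp1, so little of either departure was left there.

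**Figure D4:**
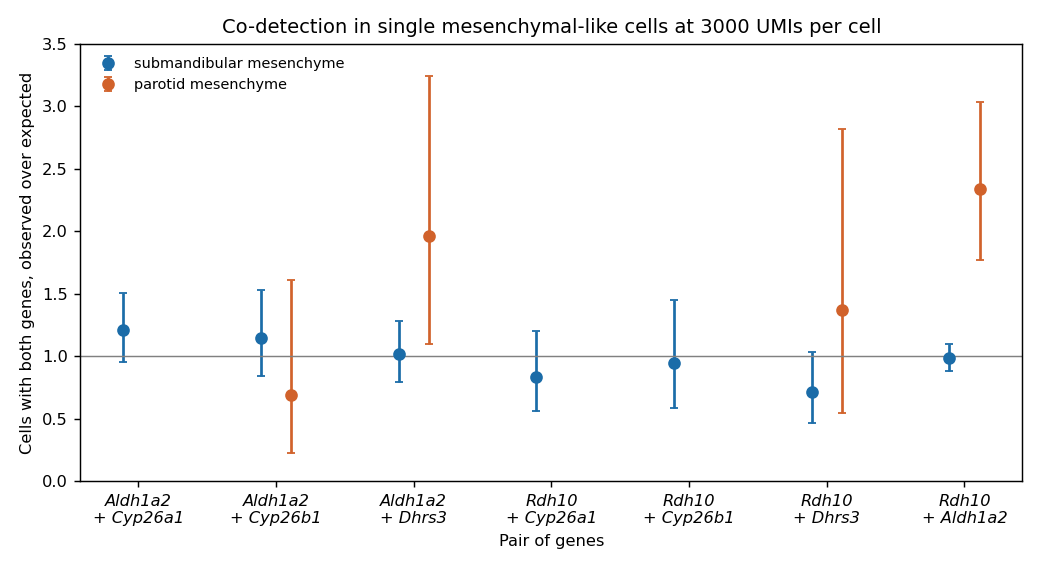
Cells with both genes over the number expected from the product of their shares, in mesenchymal-like cells thinned to 3000 UMIs. Points are ratios with exact 95% Poisson intervals of the observed number, for pairs with at least 5 cells expected, and the line marks 1. The 6 submandibular pairs of a synthesis with a breakdown or reverse gene span 1, and parotid Rdh10 with Aldh1a2 lies at 2.34. Parotid points with Dhrs3 lie at 1.97 (Aldh1a2) and 1.37 (Rdh10). Dhrs3 was seen in 2.06% of parotid mesenchymal-like and 2.90% of erythroid-like cells, and in 4.49% and 0.943% of the submandibular ones. These intervals overlap within each gland, so nothing is read from the Dhrs3 points. Cyp26b1 shares overlap those of erythroid-like cells as well, so its points are counts only.

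In epithelium, which had next to no Aldh1a2, the breakdown gene Cyp26a1 marked different cells in the glands. In submandibular epithelium it stood at 131 CPM in cluster 10 (led by Igfbp5, Krt15 and Wnt6) and 83.9 CPM in cluster 6, with a median of 16.5 CPM over the 10 clusters. Sox10, a transcription factor gene of the distal end bud, ranged over the same clusters between 3.56 and 67.0 CPM and was 3.94 CPM in cluster 10 and 3.56 CPM in cluster 6. In parotid epithelium Cyp26a1 was highest in clusters 7 (92.5 CPM) and 4 (64.7 CPM), which were also those with the highest Sox10 (90.8 and 77.1 CPM), and the median over 11 clusters was 29.7 CPM. Over clusters, Spearman's rho of Cyp26a1 with Sox10 was -0.77 (n = 10) in submandibular and 0.511 (n = 11) in parotid epithelium, described only, since clusters of 1 library share their depth and source. Median Sox10 was 38.4 CPM over the submandibular clusters and 0 CPM over the parotid ones. Most parotid clusters were thus tied at 0, and the parotid rho rests on the few with Sox10.

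Split by a Sox10 UMI, a division chosen after these levels were seen, submandibular epithelial-like cells had 17.5 CPM (15.3 to 19.9) of Cyp26a1 in 904 cells with Sox10 and 45.7 CPM (43.1 to 48.4) in 2705 cells without it. Parotid cells had 86.7 CPM (73.8 to 101) in 192 cells with Sox10 and 35.5 CPM (32.2 to 39.2) in 1561 without. The ratio was thus 0.382 (0.330 to 0.441) in submandibular and 2.44 (2.02 to 2.94) in parotid epithelium. Crabp2 and Dhrs3 followed in the same sense, at 0.527 and 0.768 in submandibular and 1.34 and 1.83 in parotid epithelium. Rarb was at 0.429 (0.368 to 0.498) in submandibular and 1.33 (0.923 to 1.87) in parotid epithelium, and Rdh10 and Stra6 were higher with Sox10 in both glands (2.34 and 2.004 in submandibular, 2.63 and 3.96 in parotid). Cells with a Sox10 UMI were deeper, with medians of 13445.5 and 8833 UMIs against 8499 and 6894 UMIs in submandibular and parotid epithelium, and the part of depth was not tested.

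**Figure D5:**
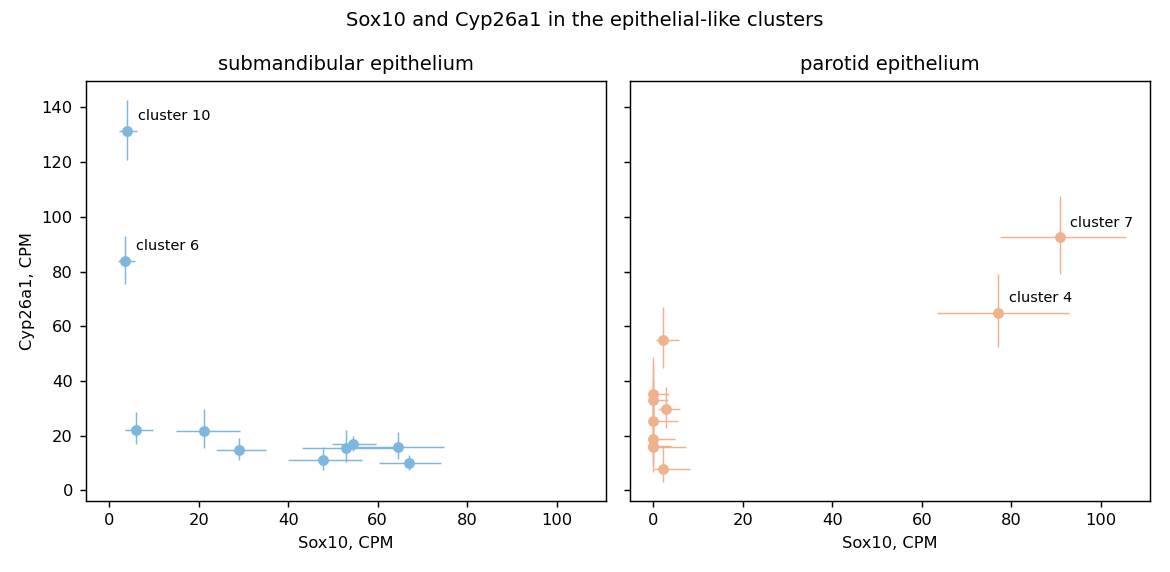
Sox10 against Cyp26a1 in CPM over the 10 submandibular (left) and 11 parotid (right) epithelial-like clusters, with exact 95% Poisson intervals. Submandibular clusters 10 and 6 have the highest Cyp26a1 (131 and 83.9 CPM) at low Sox10, and parotid clusters 7 and 4 the highest of both (Cyp26a1 92.5 and 64.7 CPM).

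Rarb and Cyp26a1 were found together in 80 submandibular epithelial-like cells against 37.9 expected, a ratio of 2.11 (1.67 to 2.62), and 1.34 with expected numbers inside clusters. Rarb was likewise highest in clusters 10 (82.5 CPM) and 6 (54.1 CPM) of that library. In submandibular mesenchyme the same pair gave 1.24 (0.910 to 1.65). For Cyp26a1 with Dhrs3 the ratio of observed to expected cells was 1.28 (1.06 to 1.53) in submandibular and 1.78 (1.29 to 2.41) in parotid epithelium. With expected numbers inside clusters it was 1.12 in submandibular and 1.47 in parotid epithelium.

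Of 70 other genes of the pathway or known to answer to retinoic acid, 22 reached 20 CPM in a group, 6 had no UMI, and 14 met the rule for naming. In submandibular over parotid mesenchyme 7 were past 2-fold higher and 0 lower, out of 20 at 20 CPM, beside 5.14% higher and 3.56% lower of all genes. Under TMM scaling, an alternative added after seeing the data, 5 were higher and 0 lower, out of 18. Rarres2, which encodes the secreted protein chemerin and is named as a retinoic acid receptor responder, stood at 61.0 CPM in submandibular and 5.96 CPM in parotid mesenchyme. Hic1 stood at 330 and 112 CPM, the homeobox gene Meis2 at 207 and 54.8 CPM, Tshz1 at 92.2 and 16.3 CPM, Zfp703 at 36.8 and 18.0 CPM and Foxf1 at 20.02 and 0.0845 CPM, in submandibular and parotid mesenchyme. Under TMM scaling Zfp703 fell within 2-fold (log2 0.91) and Foxf1 under 20 CPM (18.2 CPM in submandibular mesenchyme). These genes are given here because they were past 2-fold higher in submandibular mesenchyme, so their shared direction is no separate result. The list of 70 was chosen with earlier results of these data known, and a link of these levels to retinoic acid was not tested.

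In epithelium 2 of 16 were past 2-fold, both higher in submandibular cells, beside 2.43% of all genes. Aldh1a7, an aldehyde dehydrogenase gene, stood at 27.8 CPM in submandibular and 1.66 CPM in parotid epithelium. In mesenchyme over epithelium 9 of 22 were higher and 3 lower in the submandibular gland, beside 17.4% and 9.18% of all genes, and under TMM scaling 6 of 20 were higher and 4 lower. In the parotid gland 4 of 16 were higher and 2 lower, beside 10.3% and 7.44% of all genes, with the same counts under TMM scaling. The orphan nuclear receptor genes Nr2f1 and Nr2f2 were among those higher in mesenchyme in both glands, with Nr2f1 at 179 CPM in submandibular and 177 CPM in parotid mesenchyme against 0.0262 and 1.13 CPM in the epithelia. Nr2f2 stood at 365 and 291 CPM in mesenchyme against 27.0 and 42.7 CPM. Meis1 was lower in mesenchyme in both glands, at 19.3 and 4.35 CPM against 125 and 123 CPM, and the lipid-binding protein gene Fabp5 was lower in that of the submandibular gland, at 273 CPM against 755 CPM. Rdh14 was past 2-fold higher there, at 59.0 CPM against 29.0 CPM, but not under TMM scaling (log2 0.75), and Meis2, at 207 CPM against 372 CPM, was past 2-fold lower only under TMM scaling (log2 -1.12).

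The genes of closest pattern were found by Pearson's r of log2(CPM + 1) over 55 clusters of the 4 libraries, among 5470 genes. They describe clusters that share tissue and library, and nothing is drawn from them on function. For Aldh1a2 they were Tmem119 (r = 0.948), Colec12 and Cd248, and for Rdh10 Rarres2 (0.903), Fgf10 and Cdkn1c. For Stra6 they were Ttyh2 (0.826), Fbn1 and Plod2, and for Dhrs3 Spon2 (0.887), Krt8 and Lad1. Crabp1 was most like Gng3 (0.869), Lhx8 and Shox2, and Crabp2 most like Camk1 (0.866), Gpc6 and Sccpdh. Rarb was most like Pitx1 (0.795), Crabp2 and Tigd2, Cyp26a1 most like Mpzl2 (0.877), Meis2 and Arhgef19, and Cyp26b1 most like Fgfr1 (0.720), Barx1 and Arhgap31.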

How the data were processed

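Per the labels' protocols, tissues were parted with Dispase II, dissociated in the cold and captured on the 10x Chromium system, and the libraries were sequenced together. Reads were processed with Cell Ranger 2.1.1 on mm10 (GRCm38), per the submitters' processing notes. What the authors deposited are raw UMI counts for each gene and barcode. Columns of other samples numbered 0.

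Barcodes under 500 genes or over 10% mitochondrial UMIs were dropped. Scrublet, through scanpy 1.11.5, called 10 barcodes doublets (0.0672%), so few that the caller did not work and doublets remain in the data. Each library was clustered alone (Leiden resolution 0.8, 2000 variable genes, 30 components, 15 neighbours) without the 9 members and the 70 other pathway genes. Clusters were classed by 11 marker lists, a marker counting when detected in at least 25% of the cells, with at least 3 needed. Clusters outside the erythroid class with a median mitochondrial share under 1%, a threshold set with the data seen, stayed unnamed (136 submandibular and 93 parotid epithelium barcodes). Cell classes were rebuilt here and may differ from the study's.

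UMIs were summed per class and scaled to CPM. Intervals are exact Poisson for CPM, exact conditional binomial for ratios and Clopper-Pearson for shares. With 1 library per group there is no test. A ratio was called past 2-fold with at least 20 CPM in the higher sum. All 9 members are named. Other pathway genes are named with at least 20 CPM in a group and a 2-fold ratio in 1 of the 4 comparisons, and like-pattern genes are the 3 of highest r with at least 50 CPM in a cluster. Aldh1a1 and Aldh1a3, below 20 CPM, are given besides, as genes of the Aldh1a2 step. Some genes that the rules take are left out of the text and not reported here. Ratio and co-detection code was tested on simulated data. Members and lists were chosen with earlier results of these data known. edgeR 4.0.16 gave the TMM alternative. Gene positions are from GENCODE on GRCm38.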

Additional observations from a re-analysis of the deposited data

Results flagged for a closer look

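For Rdh10 and Cyp26a1, submandibular over parotid ratios pointed opposite ways in mesenchyme and epithelium, and the difference between the tissues was not tested because each group had 1 library. The log2 ratio of Rdh10 was 2.07 in mesenchyme and -1.17 in epithelium, where its levels were 2.82 CPM in submandibular and 6.35 CPM in parotid cells. The log2 ratio of Cyp26a1 was 6.81 in mesenchyme and -0.24 in epithelium, and the epithelial value turned to 0.18 when each cell counted equally.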

How the results depend on the processing

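No paired analysis was possible because each group had 1 library, and for the same reason no replicate could be left out. Of the single-gene values recomputed, 265 stayed within their counting interval and 47 moved beyond it, with no called value changing sign. The number of members past 2-fold between submandibular and parotid epithelium, 0 as reported, was 1 with TMM scaling, 1 at Leiden resolution 0.4, 2 with each cell counting equally and 4 with no filter on low values. In parotid mesenchyme over epithelium it was 6, and 3 with a filter of 50 CPM. Co-detection of Rdh10 with Dhrs3 in submandibular mesenchyme was 0.712, and 1.23 when barcodes under 1000 genes or over 5% mitochondrial UMIs were dropped, which kept 2018 of 4842 submandibular mesenchyme barcodes. The causes were not tested, apart from the filters, which change how many genes or cells are counted. TMM scaling shifted the median log2 ratio of all genes to -0.093 from 0.043 (submandibular over parotid mesenchyme), 0.12 from 0.0021 (epithelium), and -0.20 from 0.12 (mesenchyme over epithelium, submandibular). The genes past 2-fold were then 247 higher and 267 lower, against 316 and 219, then 168 and 147 against 135 and 185, and 720 and 929 against 1110 and 587. Detection at 2 UMIs gave a value only for Aldh1a2 with Cyp26a1 in submandibular mesenchyme (1.48), since fewer than 5 cells were expected for the other pairs. Depth limits Cyp26b1 and Dhrs3 in mesenchyme, each seen in under 5% of thinned cells.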

Other observations

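Other classes of the mesenchyme libraries carried members at levels of their own. Stra6, the retinol receptor gene, stood at 29.1 CPM (21.6 to 38.4) in 131 submandibular and 20.0 CPM (15.6 to 25.2) in 233 parotid skeletal muscle-like cells, and at 0.55 CPM in submandibular erythroid-like cells. Dhrs3 stood at 78.4 CPM (47.2 to 122) in 22 macrophage-like cells and 33.9 CPM (24.7 to 45.6) in 139 endothelial-like cells of the submandibular library, where mesenchymal-like cells had 14.3 CPM. In 56 chondrogenic-like cells of that library Aldh1a2 stood at 130 CPM (95.0 to 173) and Rdh10 at 14.1 CPM (4.58 to 32.9). Crabp1 stood at 23.1 CPM in 146 neural crest- and glial-like cells. The 22 mesenchymal-like cells of the submandibular epithelium library had 96.8 CPM of Aldh1a2 (51.5 to 165) and 142 CPM of Rdh10 (85.2 to 221), and the 120 epithelial-like cells of the parotid mesenchyme library had 17.9 CPM of Cyp26a1 (10.8 to 27.9) and 1 UMI of Aldh1a2.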
